A study of Drosophila melanogaster with 4 samples.

Results

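The Y-linked male fertility genes of *Drosophila melanogaster* are described here in whole third-instar larvae with a duplication of *Inr-a* and in wild type larvae. The members were chosen by name among the transcripts listed on the Y chromosome, and their transcripts were summed per gene. They are *kl-2*, *kl-3*, *kl-5*, *ORY*, *CCY*, *WDY*, *ARY*, *Ppr-Y*, *Pp1-Y1* and *Pp1-Y2*, which makes 10 of the 14029 genes and 11 of the 30090 transcripts listed. On the Y chromosome 80 genes were listed, so 70 other genes share it with the members.

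RNA sequencing compared male larvae carrying an *Inr-a* (*Pcf11*) duplication over a normal chromosome (pcf11/+) with male Canton S larvae (+/+), all raised at 25 °C. *Inr-a* encodes Pcf11, a subunit of the machinery that cleaves and polyadenylates new transcripts. The duplication larvae were offspring of *w[a]; Pcf11Dup/CyO GFP* fathers and Canton S mothers, picked for the lack of green fluorescence, and wild type larvae came from the Canton S stock. Sons inherit the Y chromosome from the father, so the Y chromosome of the duplication larvae came from the *Pcf11Dup* stock and that of the wild type larvae from Canton S. The origin of the Y chromosome and the genotype at *Inr-a* therefore cannot be told apart in any difference described here, and the same holds for the autosomes that came from the *Pcf11Dup* fathers. Each genotype had 2 libraries of pooled larvae, with 15423445 and 14084653 counts for the *Inr-a* duplication and 12558720 and 11304266 counts for wild type. These counts were recovered from the mean CPM of each genotype (counts per 1000000 counts of a library). Library A stands for the deeper library of a genotype and library B for the shallower one. At these depths a limit of 3 counts corresponds to 0.195 and 0.213 CPM in the duplication libraries and to 0.239 and 0.265 CPM in the wild type libraries.

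The *Drosophila* Y chromosome carries few protein-coding genes, and males that lack it are sterile because their sperm do not mature. Several Y-linked genes contain introns of enormous length, are transcribed in the primary spermatocytes of the testis as lampbrush-like loops, and encode proteins of the moving sperm tail. The *kl* genes were found by genetics as loci required for male fertility. Several of the other members were found from their sequence, so the name male fertility genes does not rest on the same evidence for each. Third-instar larvae of the male sex have testes with spermatocytes, but the RNA here came from whole animals, and in such bulk samples fewer cells of a type and less RNA per cell cannot be told apart.

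The RNA of the Y-linked genes was sparse and present in every library. Over the 4 libraries the members had between 14 and 97 counts each, and 9 of the 10 had a count in every library. The exception was *Pp1-Y1*, a Y-linked catalytic subunit of protein phosphatase 1, an enzyme that removes phosphate from serine and threonine. It had 0 and 0 counts in the *Inr-a* duplication libraries, against 35 and 28 counts in the wild type libraries. Of the other members, *WDY* and *kl-3* were higher in both duplication libraries than in either wild type library, as were 22.9% of all genes tested. *WDY* did not pass the test, and *kl-3* was too low for the filter of the main test. The rest overlapped between the genotypes or differed by little.

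**Figure D1:**
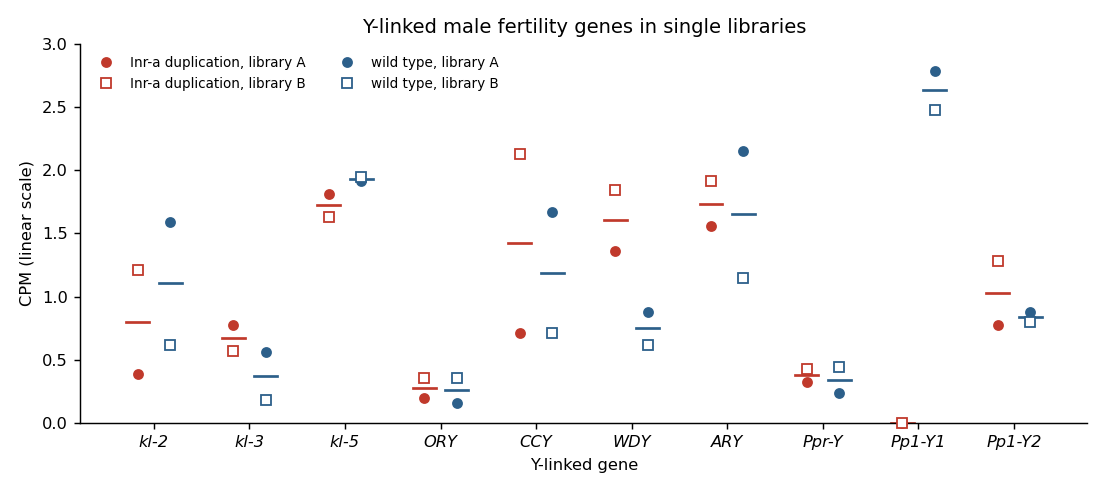
CPM on a linear scale of the 10 Y-linked male fertility genes in each library, with the Inr-a duplication in red left of wild type in blue, filled circles for library A, open squares for library B and a line at the mean of each genotype. Pp1-Y1 lies at 0 CPM in both duplication libraries and at 2.79 and 2.48 CPM in the wild type libraries, whereas the points of the 2 genotypes overlap for 6 genes. Among all genes tested 53.3% had no overlap.

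*Pp1-Y1* was thus listed at 0 CPM in both *Inr-a* duplication libraries, and at 2.79 and 2.48 CPM (2.63 ± 0.219, SD, n = 2) in wild type. Both wild type libraries lie far above the limit of 3 counts in either duplication library. Against the limit of 3 counts over both duplication libraries together, 0.102 CPM, it was at least 25.9-fold lower in the duplication larvae. The ratio of the summed counts, duplication over wild type, had an upper 95% bound of 0.0488 (exact binomial, counting error only). In the test across all genes *Pp1-Y1* fell in the *Inr-a* duplication, with an adjusted p of 0.000492 (limma, Benjamini-Hochberg over 11540 genes). Its fitted log2 fold change was -2.63 (SE 0.42) on the scale of log2(CPM + 0.5), and this value depends on the constant added because the duplication libraries hold no counts. It ranged between -6.27 and -1.202 with other constants, other scaling and other variance models. Every such fit on genes in which it was tested kept the call, and without the filter on low counts the adjusted p was 0.00221 (limma). In a fit across 20111 single transcripts, where 0 transcripts passed the threshold and 11.3% had an unadjusted p below 0.05, its adjusted p was 0.320 (limma). Leaving out either wild type library took the gene below the filter. The genes of the 4-library filter were then kept, an alternative chosen after seeing the data. On that set the log2 fold change of *Pp1-Y1* lay between -2.71 and -2.55 over the libraries left out. Such a fit leaves 1 library in a genotype, and without a wild type library the only repeated libraries both hold 0 counts. It therefore gives no check on the adjusted p.

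The background of this count was small. Over all genes tested 2.23% passed the threshold in either direction, namely 199 higher genes (1.72%) and 58 lower genes (0.503%). Of the members, 7 passed the filter on low counts and were tested, and 1 of the 7, *Pp1-Y1*, passed the threshold. *Pp1-Y1* had passed the filter through its counts in wild type alone. Among the 609 genes whose summed counts lay in the range of the members tested, 50 to 97, 14 genes or 2.3% passed the threshold, of which 3 or 0.493% were lower in the duplication. The same pattern in raw counts, with at least 10 counts in both wild type libraries and 0 in both duplication libraries, was found in 4 of 11101 genes (0.0360%), and *Pp1-Y1* was the only gene of the Y chromosome among them. The other 3 were *CG13245* on 2L, *CG11768* on 3R and *Hsp70Ab* on 3R, and *Hsp70Ab* is 1 of several near-identical *Hsp70* copies, so its count is uncertain.

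**Figure D2:**
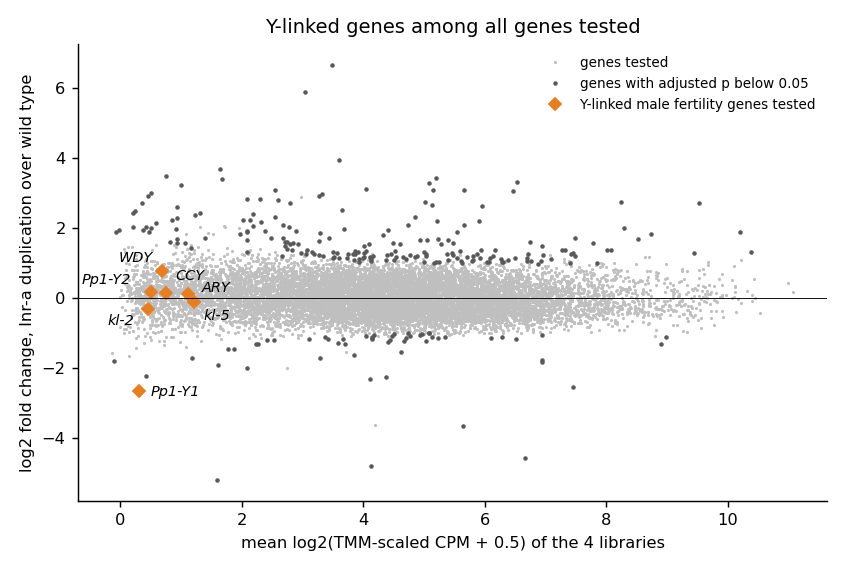
Log2 fold change, Inr-a duplication over wild type, against the mean log2(TMM-scaled CPM + 0.5) of the 4 libraries for the 11540 genes tested, with genes past an adjusted p of 0.05 in dark grey and the 7 Y-linked male fertility genes tested as orange diamonds. Pp1-Y1 lies at -2.63 at the low end of expression, and the other 6 lie between -0.30 and 0.77 within the cloud of genes that did not pass.

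*Pp1-Y1* is the first gene listed on the assembled Y chromosome. It lies on the plus strand of Y:9833-10786 (BDGP6.54, Ensembl annotation), where its single exon of 954 bp holds the whole coding sequence. The gene after it is *kl-5*, 11463 bp further on, and its counts were 28 and 23 in the duplication libraries and 24 and 22 in the wild type libraries. The neighbour of *Pp1-Y1* was therefore detected at almost the same level in both genotypes. The other Y-linked phosphatase gene, *Pp1-Y2*, encodes a further catalytic subunit of protein phosphatase 1 and lies at the far side of the chromosome, on the minus strand of Y:3539437-3540722, again with a single exon. It had 12 and 18 counts in the *Inr-a* duplication, against 11 and 9 counts in wild type. In CPM these were 0.778 and 1.28 in the duplication (1.03 ± 0.354, SD, n = 2) and 0.876 and 0.796 in wild type (0.836 ± 0.0564). The libraries of the genotypes overlapped, and the log2 fold change was 0.19 (SE 0.41, adjusted p = 0.823, limma). The sum of both Y-linked phosphatase genes was 0.778 and 1.28 CPM in the duplication, all of it from *Pp1-Y2*, and 3.66 and 3.27 CPM in wild type.

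The 3 *kl* genes encode heavy chains of axonemal dynein, the motor proteins that bend the sperm tail, and are among the longest genes of the chromosome. *kl-2* spans Y:573088-664173, *kl-3* spans Y:336381-563165 and *kl-5* spans Y:22250-137486, with longest introns of 39011, 120259 and 53833 bp. *kl-2* had 6 and 17 counts in the *Inr-a* duplication and 20 and 7 in wild type. Each genotype thus held 1 high and 1 low library, with 0.389 and 1.21 CPM in the duplication and 1.59 and 0.619 CPM in wild type, and the log2 fold change of -0.30 (SE 0.45) did not pass (adjusted p = 0.727, limma). *kl-3* had 12 and 8 counts in the duplication, against 7 and 2 in wild type. Its duplication libraries, 0.778 and 0.568 CPM, lay just above the wild type libraries, 0.557 and 0.177 CPM, and it was too low for the filter. Without the filter its log2 fold change was 0.48 with an adjusted p of 0.408 (limma), and the ratio of summed counts was 1.80, with a 95% interval of 0.782 to 4.48. *kl-5* varied little between libraries, with 1.82 and 1.63 CPM in the duplication (1.72 ± 0.129, SD, n = 2) and 1.91 and 1.95 CPM in wild type (1.93 ± 0.0249). Both duplication values lay below both wild type values, but the log2 fold change was only -0.10 (SE 0.37, adjusted p = 0.906, limma). Summed over the 3 dynein genes the levels were 2.98 and 3.41 CPM in the duplication and 4.06 and 2.74 CPM in wild type, so the wild type libraries lay on either side of the duplication libraries.

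*WDY*, named for the WD40 repeats of its protein, showed the greatest difference after *Pp1-Y1* among the members tested. It lies at Y:2273422-2487777 and has a longest intron of 137947 bp. It had 21 and 26 counts in the *Inr-a* duplication, against 11 and 7 counts in wild type. The levels of 1.36 and 1.85 CPM in the duplication (1.60 ± 0.343, SD, n = 2) lay above those of 0.876 and 0.619 CPM in wild type (0.748 ± 0.181), which is 2.15 times as much in the duplication. On the log2 scale the fold change was 0.77 (SE 0.40), with a 95% interval of -0.06 to 1.60 that includes 0, and the adjusted p was 0.270 (limma). Counting error alone gave a ratio of summed counts of 2.11 with an interval of 1.203 to 3.86, which leaves out 1 but does not cover the spread between libraries. The sign was positive in each fit made, with values between 0.40 and 1.08.

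*CCY* and *ORY* encode coiled-coil proteins and lie close to each other, *ORY* at Y:3561745-3618339 and *CCY* at Y:3649996-3666928. *CCY* had 11 and 30 counts in the *Inr-a* duplication and 21 and 8 in wild type. Its 0.713 and 2.13 CPM in the duplication enclosed the 1.67 CPM of wild type library A, while wild type library B had 0.708 CPM. The log2 fold change was 0.16 (SE 0.44, adjusted p = 0.872, limma). *ORY* was the member with the fewest counts, 3 and 5 in the duplication and 2 and 4 in wild type. Its levels of 0.195 and 0.355 CPM in the duplication and 0.159 and 0.354 CPM in wild type are near the limit of 3 counts, so no difference was detectable at this depth, and its ratio of summed counts had an interval of 0.328 to 3.77.

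*ARY*, a gene of the aldo-keto reductase family, is compact, with 1619 bp at Y:702430-704048 and no intron longer than 113 bp. It had 24 and 27 counts in the *Inr-a* duplication and 27 and 13 in wild type, or 1.56 and 1.92 CPM and 2.15 and 1.15 CPM. The duplication libraries lay between the wild type libraries, and the log2 fold change was 0.12 (SE 0.39, adjusted p = 0.897, limma). *ARY* is the only member with 2 listed transcripts. The transcript FBtr0301808 held 20 and 27 counts in the duplication and 23 and 11 in wild type, and FBtr0301807 held 4 and 0 in the duplication and 4 and 2 in wild type, so most of the gene's counts went to the same transcript in all 4 libraries. The counts assigned to each of 2 overlapping transcripts are estimates and the smaller is uncertain. *Ppr-Y*, at Y:1636574-1884846 with a longest intron of 150611 bp, had 5 and 6 counts in the duplication and 3 and 5 in wild type. Its levels of 0.324 and 0.426 CPM in the duplication and 0.239 and 0.442 CPM in wild type overlapped.

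The members differed in direction. In the fit without a filter, which includes all 10, the log2 fold change was positive for 7 and negative for 3, with a median of 0.10, against a median of 0.03 over 13161 genes. For 8 of the 10 the interval of the ratio of summed counts included 1. It covers counting error only, and the share over all genes was not computed. Among the 7 members tested, the duplication libraries both lay above the wild type libraries for *WDY* and both below for *kl-5* and *Pp1-Y1*, and among all genes tested 53.3% had no overlap, 22.9% with the duplication above and 30.3% with it below. The sum of the 10 members was 7.91 and 11.4 CPM in the duplication and 12.8 and 9.29 CPM in wild type. Without *Pp1-Y1* the remaining 9 summed to 7.91 and 11.4 CPM in the duplication and 10.03 and 6.81 CPM in wild type, a ratio of the means of 1.14. The genotypes overlapped in both sums.

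**Figure D3:**
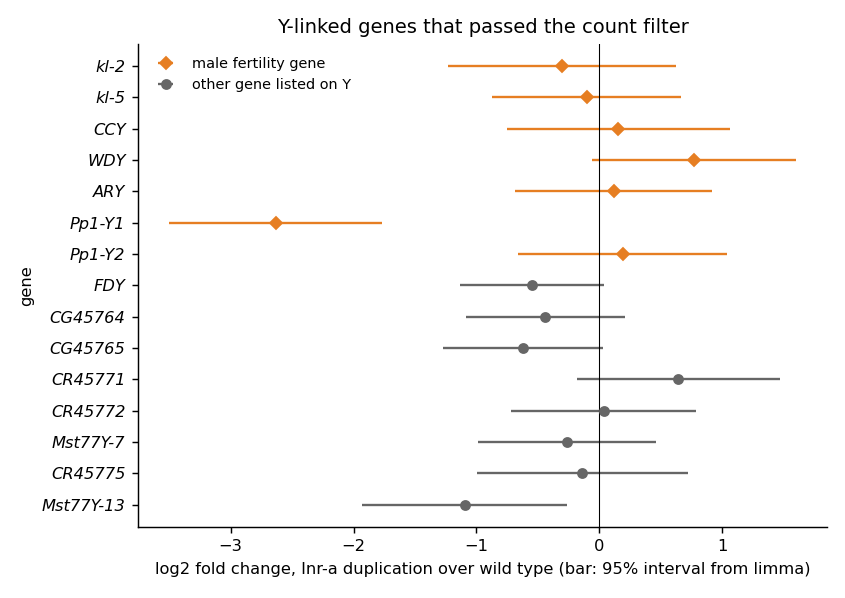
Log2 fold change, Inr-a duplication over wild type, with its 95% interval from limma, for the 7 Y-linked male fertility genes that passed the count filter (orange diamonds) and the 8 other genes listed on Y that passed it (grey circles). Of the 15 intervals only those of Pp1-Y1 and Mst77Y-13 leave out 0, and of these only Pp1-Y1 passed the adjusted threshold. The intervals are not adjusted, and 20.8% of all genes tested had an unadjusted p below 0.05 (limma).

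The SD between the libraries of each genotype exceeded the difference of the genotype means for *kl-2*, *CCY*, *ARY*, *ORY* and *Ppr-Y*. For *Pp1-Y2* this held in the duplication only. *kl-2*, *CCY*, *WDY*, *ARY* and *Pp1-Y2* were higher in library B of the *Inr-a* duplication, but in library A of wild type. The sum of the 9 members without *Pp1-Y1* was ordered the same way. The other members did not share this form, since *kl-3* was higher in library A of both genotypes, *ORY* and *Ppr-Y* were higher in library B of both, and *kl-5* was higher in library A of the duplication and slightly higher in library B of wild type. Relative to each gene's own mean, the median log2 level of the 7 members tested was -0.10 and 0.28 in the duplication and 0.29 and -0.30 in wild type. The sum of 10 early germline genes, 44.5 and 66.3 CPM in the duplication and 51.0 and 43.1 CPM in wild type, had its libraries in the same order as that of the 9 members. Also in that order was the sum of 5 genes of the somatic testis cells, 44.2 and 48.4 CPM against 47.0 and 38.1 CPM. The sum of 9 spermatocyte genes was also highest in library B of the duplication, with 264 and 327 CPM in the duplication and 316 and 305 CPM in wild type. Other lists differed. Meiotic arrest regulators and dynein heavy chains not on Y summed highest in library A of wild type, at 172 and 200 CPM. Other axoneme and sperm tail genes, and spermatid and sperm genes, did so in library B of wild type, at 996 and 6975 CPM. The part of the amount of germline tissue in the levels of the members was not tested. The 5 genes tested whose profile over the 4 libraries was nearest to the median profile of the members were *CG42588*, *CG11983*, *CG44774*, *CG30395* and *CG30195*, at root mean square distances between 0.0535 and 0.0613 on the log2 scale. None of them is on the Y chromosome, and with 4 libraries such a likeness is only a description.

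Levels of different genes were compared per kilobase of transcript, since the transcripts of the members are between 954 and 13882 bp long. In wild type *Pp1-Y1* led with 2.76 ± 0.230 CPM per kb (SD, n = 2), followed by *ARY* with 1.19 ± 0.510 and *Pp1-Y2* with 0.650 ± 0.0438. Then came *CCY* with 0.297, *WDY* with 0.220, *Ppr-Y* with 0.199 and *kl-5* with 0.141 CPM per kb, and last *ORY* with 0.0935, *kl-2* with 0.0826 and *kl-3* with 0.0264. The wild type libraries of the neighbours *CCY* and *WDY*, *WDY* and *Ppr-Y*, *Ppr-Y* and *kl-5*, and *ORY* and *kl-2* overlapped, so the order within these pairs is not set by the data. In the *Inr-a* duplication the order began with *ARY* at 1.25 and *Pp1-Y2* at 0.799 CPM per kb, *WDY* at 0.473 stood before *CCY* at 0.355, and the lowest dynein gene was again *kl-3* at 0.0485. *Pp1-Y1*, first in wild type, was last in the duplication. The 3 members without an intron of more than 10 kb were the 3 with the highest wild type level per kb, and the 7 members with such an intron were the 7 lowest. The same 3 also have the shortest transcripts, 954 to 1392 bp long, against 1710 bp or more for the 7. Intron size and the transcript length used as divisor therefore cannot be told apart here. By coding length in place of transcript length *Pp1-Y2* averaged 0.993 over both genotypes, against 0.725 by transcript length, and stayed behind *ARY*.

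**Figure D4:**
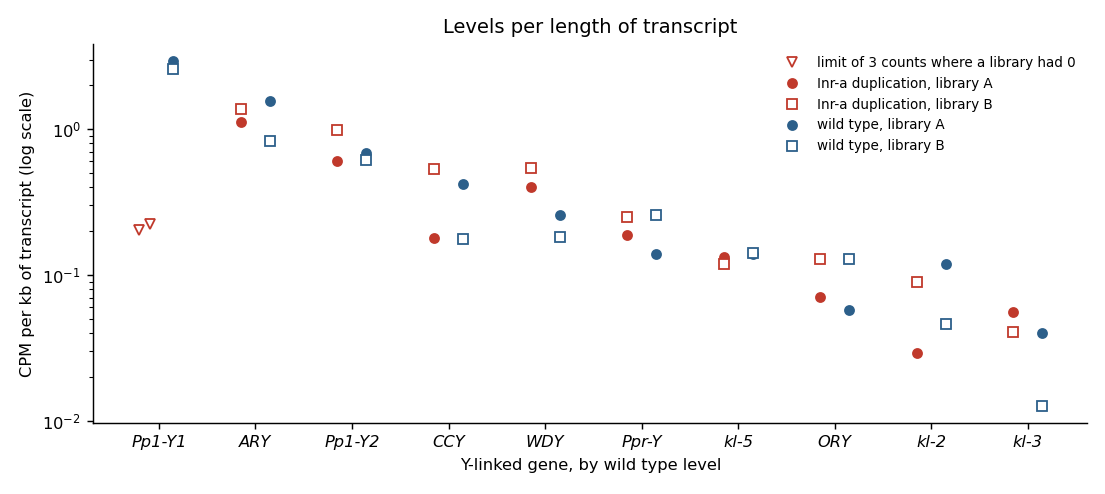
CPM per kilobase of transcript on a log scale for the 10 Y-linked male fertility genes in order of their wild type mean, with the Inr-a duplication in red left of wild type in blue, filled circles for library A and open squares for library B. The open triangles mark the limit of 3 counts for the duplication libraries in which Pp1-Y1 had 0, and they lie more than 10-fold below its wild type points at 2.92 and 2.60 CPM per kb.

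Of the 70 other genes listed on the Y chromosome, 14 had at least 10 counts over the 4 libraries, 21 had between 1 and 9, and 8 were tested, of which none passed the threshold. The sum of the 70 genes was 33.3 and 43.8 CPM in the *Inr-a* duplication and 48.9 and 55.6 CPM in wild type, without overlap. Of single genes tested 53.3% had no overlap, 30.3% with the duplication below. Much of the sum came from *FDY*, *CG45764* and *CG45765*, with wild type means of 16.4, 9.98 and 10.1 CPM. Reads shared with other copies make these levels, and so the sum, uncertain. *FDY*, a Y-linked copy derived from the autosomal gene *vig2*, was the most abundant, and reads shared with *vig2* make its level uncertain. It had 175 and 144 counts in the duplication, against 215 and 177 counts in wild type, or 11.3 and 10.2 CPM against 17.1 and 15.7 CPM, with a log2 fold change of -0.55 (SE 0.28, adjusted p = 0.265, limma). *Mst77Y-13*, of the Y-linked copies of the sperm chromatin gene *Mst77F*, had 10 and 9 counts in the duplication and 19 and 29 in wild type, with a log2 fold change of -1.10 (SE 0.40, adjusted p = 0.137, limma). Counts of such near-identical copies can be split between them and are uncertain. *PRY*, which lies between *kl-5* and *kl-3*, had 7 and 2 counts in the duplication and 3 and 2 in wild type.

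The same question was put to genes on other chromosomes that share a process with the members. None of the lists of sperm tail, testis and phosphatase genes had a gene past the threshold (limma, adjusted over all genes). Their counts at an unadjusted p below 0.05 are to be read against 20.8% of all genes tested. Of the axonemal dynein heavy chains not on Y, 6 were tested, with 2 at an unadjusted p below 0.05 and a median log2 fold change of -0.48, against 0.02 over all genes tested. Their sum was 94.4 and 95.4 CPM in the *Inr-a* duplication and 200 and 93.3 CPM in wild type, so wild type library A alone stood high, a feature that the sum of the Y-linked dynein genes, 2.98 and 3.41 CPM against 4.06 and 2.74 CPM, showed less. *Dnah3*, the most abundant of them, had 22.8 and 26.6 CPM in the duplication and 66.6 and 26.3 CPM in wild type. Of 12 other axoneme and sperm tail genes, 3 had an unadjusted p below 0.05 and the median was -0.41. The most abundant of the 12, *betaTub85D*, the testis beta-tubulin of the sperm axoneme, was not among those 3. It had 449 and 327 CPM in the duplication and 529 and 634 CPM in wild type, with an adjusted p of 0.265 (limma).

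*blanks* and *heph* encode RNA-binding proteins that are required in *Drosophila* spermatocytes for the expression of giant Y-linked genes. *heph* had 94.7 and 163 CPM in the duplication and 82.1 and 62.4 CPM in wild type, with a log2 fold change of 0.82 (adjusted p = 0.109, limma), and *blanks* had 22.0 and 41.5 CPM in the duplication and 21.6 and 25.6 CPM in wild type, with 0.39 (adjusted p = 0.445). Neither passed the test. Their values stood highest in library B of the duplication, as did those of *CCY*, *WDY*, *Pp1-Y2* and, narrowly, *ORY*. The share of all genes with their highest value there was not computed, so this is a description only. *Pp1-Y2* has no intron, and *ORY* had 5 counts there against 4 in library B of wild type. The sum of the members without *Pp1-Y1* was also highest there. The dynein genes went another way, with *kl-2* highest in library A of wild type, *kl-3* in library A of the duplication and *kl-5* in library B of wild type. *ARY* was highest in library A and *Ppr-Y* in library B of wild type.

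Other testis lists were checked because the Y-linked genes are used in the testis. For 23 spermatid and sperm genes the median log2 fold change was -0.64, 12 had an unadjusted p below 0.05, 15 had both duplication libraries below both wild type libraries and 0 had both above, and the lowest adjusted p was 0.0631 (limma). Over all genes tested 20.8% had such a p, 30.3% had both duplication libraries below and 22.9% both above. Their sum was 4506 and 3368 CPM in the *Inr-a* duplication and 5754 and 6975 CPM in wild type. Over the 10 members, in the fit without a filter, the median log2 fold change was 0.10, and the difference between both lists was not tested. The median was -0.30 over 11 testis meiotic arrest regulators, which switch on spermatocyte genes, 0.01 over 9 spermatocyte genes, 0.36 over 9 early germline genes and 0.11 over 4 genes of the somatic testis cells. Testis RNA was thus present in all libraries, and in the 6 sperm tail, testis and germline lists with 70 genes tested the number past the threshold was 0, with 19 genes at an unadjusted p below 0.05 (limma), against 20.8% of all genes tested. The part of testis content in the level of *Pp1-Y1* was not tested. No gene of these lists with at least 10 counts in both wild type libraries was at 0 in both duplication libraries. Over all genes this pattern was found in 4 of 11101 (0.0360%), so its absence from lists of this size does not bear on that question.

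The 8 catalytic subunits of protein phosphatase 1 that are not on the Y chromosome had a median log2 fold change of 0.42, and 1 had an unadjusted p below 0.05, against 20.8% of all genes tested. *Pp1-87B*, the main subunit of the family in most fly tissues, had 171 and 246 CPM in the *Inr-a* duplication and 130 and 160 CPM in wild type, with a log2 fold change of 0.54 (adjusted p = 0.252, limma). *Pp1alpha-96A* had 40.8 and 57.5 CPM in the duplication and 36.6 and 35.9 CPM in wild type. The sum of the 8 genes was 275 and 387 CPM in the duplication and 241 and 264 CPM in wild type. *Pp1-Y1* was the only catalytic subunit on the lists that passed the test, and against these sums its wild type level of 2.63 CPM was small.

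**Figure D5:**
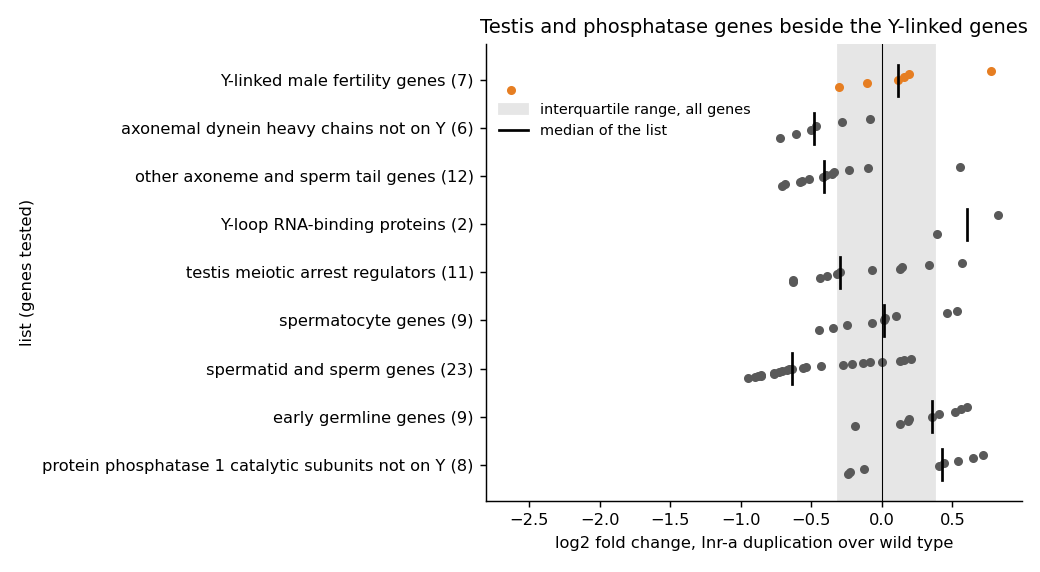
Log2 fold change, Inr-a duplication over wild type, of each gene tested in the Y-linked group (orange) and in 8 other lists (grey), with a black line at the median of each list and grey shading for the interquartile range of all genes tested. Points are shifted vertically by rank only. Pp1-Y1 at -2.63 is the only point beyond -1, and the spermatid and sperm genes have the lowest median, -0.64.

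The labels were checked on the genes they concern. *Pcf11* (*Inr-a*) had 1285 and 1338 counts in the *Inr-a* duplication and 758 and 656 counts in wild type, and its mean CPM was 1.51 times that of wild type. Its log2 fold change was 0.62 (SE 0.26) and its adjusted p was 0.180 (limma), so it did not pass the test across all genes. *msl-2*, which encodes the male-specific subunit of the dosage compensation complex, had 44.9 and 44.7 CPM in the duplication and 36.5 and 46.3 CPM in wild type. *Sxl* had 13.9 and 22.5 CPM in the duplication and 12.6 and 14.3 CPM in wild type. *tra* had 2.85 and 4.05 CPM in the duplication and 4.70 and 5.84 CPM in wild type. None of these genes passed the test, and their summed RNA levels do not by themselves show the sex of the larvae. The labels give all larvae as male, and Y-linked counts were found in every library, while the share of male larvae per library was not measured. Genes of the third-instar fat body and salivary gland were abundant, at authors' means of 4878 to 24750 CPM in the duplication and 1403 to 28992 CPM in wild type over 8 genes. The larval serum protein genes *Lsp1alpha*, *Lsp1beta* and *Lsp1gamma* had 3.16, 2.12 and 4.54 times the wild type mean in the duplication, while the other 5 lay between 0.731 and 1.23 times. These genes were among those left out of the tests, and the part of larval stage or tissue composition in the levels of the Y-linked and testis genes was not tested.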

How the data were processed

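Total RNA of pooled larvae was extracted with TRIzol and sequenced in paired ends. Per the study's methods and the submitters' processing notes, reads were trimmed (Trimmomatic), assigned to the Ensembl transcriptome (BDGP6) by Salmon 1.4.0 and read in by tximport. The authors deposited, for 30090 transcripts, the CPM averaged over both libraries of a genotype. A column of ratios of these means was not used. The authors' own test was DESeq2, which was not run here.

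A mean CPM of 2 libraries is the sum of 2 whole counts over their totals, so both counts can be found once the totals fit. Exactly 1 pair of counts was found for 99.7% of the *Inr-a* duplication and 99.4% of the wild type transcripts above 0. Transcripts with several pairs, 66 and 131 in number, had means of 1003 CPM or more, and 128 genes that hold one were left out of tests and values per library. They carry 39.3% and 39.0% of the CPM. On means simulated from whole counts, 100% of the transcripts with exactly 1 pair had the right one. Transcripts with several pairs were not scored. Libraries A and B could not be tied to the replicate numbers in the labels.

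Transcripts were summed by symbol and chromosome. Genes with at least 10 counts at the median library size in 2 libraries and 15 in all entered a limma fit with trend (version 3.58.1 in R 4.3.3) of log2(TMM-scaled CPM + 0.5), with Benjamini-Hochberg adjustment over 11540 genes and a threshold of 0.05. Fold changes on this scale understate the change of low genes. The TMM factors were 0.942 and 1.04 for the duplication and 1.01 and 1.01 for wild type. P-values rest on the spread between 2 libraries of pooled larvae per genotype, which limma moderates toward the spread of other genes of similar level. The SE of a single gene therefore draws largely on other genes. Ratios of summed counts carry exact (Clopper-Pearson) 95% intervals, and these and the limit of 3 counts cover counting error only. Levels per kilobase used the CPM-weighted transcript length. Positions come from Ensembl release 115 (BDGP6.54), which holds 29964 of the transcripts.

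The members and gene lists were chosen with earlier results of these data known. The genes named are the 10 members, other Y genes with at least 10 counts, up to 3 genes of each list (those past the threshold or the most abundant), *Pcf11* and the 5 nearest profiles. The genes with 0 counts in one genotype were named after their values were seen. The alternatives were other scaling, filters, constants added before the log, variance models, a length trend, transcripts in place of genes, other lengths and leaving out each library. Other steps ran in Python 3.11.15 with scipy 1.17.1, pandas 2.3.3, matplotlib 3.10.9 and numpy 2.4.6.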

Additional observations from a re-analysis of the deposited data

How the results depend on the processing

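No paired analysis was possible because the recovered libraries carry no replicate number. *Pp1-Y1* passed the threshold in each alternative on genes that kept all 4 libraries and in which it had a value. On transcripts it did not pass (-2.64, adjusted p = 0.320, limma). The number of members past the threshold, 1, was 0 with a stricter filter that asks for the counts in all 4 libraries, 0 on transcripts, and between 0 and 1 when single libraries were left out, being 0 without wild type library A or B, since *Pp1-Y1* then failed the filter. The numbers over all genes moved more. The 199 higher genes became 59 with library totals, 45 without a filter, 362 with robust moderation and 0 on transcripts, and 87 to 542 without single libraries, or 103 to 569 (447 without wild type library A) with the genes of the 4-library filter. The 58 lower genes became 17, 14, 185 and 0 in the same 4 settings, 93 with the stricter filter, and 33 to 489 without single libraries, or 36 to 505 with the genes of the 4-library filter. The cause was not tested.

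Small differences of members, and of the Y-linked pseudogenes *CR45772* and *CR45775*, that had not passed the test changed sign. Without the trend with transcript length the log2 fold change of *CCY* was -0.0615 and that of *CR45775* was 0.0224. Leaving out single libraries gave -0.76 to 0.12 for *kl-2*, -0.23 to 0.0129 for *kl-5*, -0.28 to 0.66 for *CCY*, -0.24 to 0.46 for *ARY*, -0.28 to 0.34 for *CR45772* and -0.61 to 0.32 for *CR45775*. With the genes of the 4-library filter, chosen after seeing the data, the ranges were -0.76 to 0.15 for *kl-2*, -0.23 to 0.0120 for *kl-5*, -0.35 to 0.65 for *CCY*, -0.000225 to 0.37 for *Pp1-Y2*, -0.29 to 0.33 for *CR45772* and -0.61 to 0.32 for *CR45775*, which had 0.17 without duplication library A. Of the lists, the spermatid and sperm genes had 1 lower gene with the stricter filter, 3 with robust moderation and 9 without duplication library A, the dynein heavy chains not on Y had 1 without the length trend and 1 without wild type library B, and *heph* and *blanks*, like the phosphatase subunits not on Y, had 1 higher gene without duplication library A. With 14 to 97 counts per member, differences within a few counts could not be resolved.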

Other observations

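The reverse of the *Pp1-Y1* pattern, at least 10 counts in both *Inr-a* duplication libraries and 0 in both wild type libraries, was found in 8 of 11358 genes, none of them on the Y chromosome. These were *CG30059*, *CG45075*, *CG6912*, *CG9279*, *CR11023*, *LysP*, *lectin-22C* and *lmgB*. *CG9279* had 97 and 58 counts in the duplication and 0 and 0 in wild type. Of the genes with the *Pp1-Y1* pattern, *CG13245* had 0 and 0 counts in the duplication and 32 and 31 in wild type, close to the 35 and 28 of *Pp1-Y1*.

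The 2 transcripts of *FDY* were used in different proportions by library. FBtr0473381 held 165 and 60 counts in the *Inr-a* duplication and 173 and 118 in wild type, and FBtr0473382 held 10 and 84 in the duplication and 42 and 59 in wild type. The transcripts differ in length by only a few bases, so the split of reads between them is uncertain, and the order of the libraries differs within each genotype.

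*CR45771*, annotated as a pseudogene within the block of Y-linked *Mst77Y* copies, where counts can be split between near-identical copies, had 36 and 82 counts in the *Inr-a* duplication and 19 and 37 counts in wild type, with a log2 fold change of 0.64 (SE 0.40, adjusted p = 0.352, limma). *CG45765*, in the same block and uncertain for the same reason, had 4.603 and 8.38 CPM in the duplication and 9.16 and 11.1 CPM in wild type, with -0.62 (SE 0.32, adjusted p = 0.260, limma).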
